A study of Mus musculus with 6 samples.

Results

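The genes described here are 36 mouse genes that make ribosomal RNA (rRNA) or turn its precursor into mature rRNA. They were taken by symbol from a list, and all 36 were found among the 54532 genes of the count tables. Of these, 12 encode the RNA polymerase I machinery (5 polymerase subunits, 3 initiation or termination factors and the 4 TAF proteins of the promoter factor SL1) and 24 encode processing factors. RNA had been sequenced from LSK cells, the fraction of mouse bone marrow that lacks lineage markers, carries Sca-1 and c-Kit and holds the blood stem cells and early progenitors. Both groups came from males (the Y of the genotype) in which the only Phf6 copy, on the X chromosome, was the floxed allele fl-R274X, which is meant to give a premature stop codon at R274 once Cre has acted. In 3 libraries the genotype was Phf6fl-R274X/Y without Cre (floxed libraries), and in 3 it was Vav1-Cre; Phf6fl-R274X/Y (Vav1-Cre libraries). Vav1-Cre is active across the blood lineages, so Cre is present in one group alone, and what Cre does by itself cannot be told apart from the allele. The labels give no age. They also leave out whether each library is its own mouse; p-values therefore rest on library-to-library spread, part of which may be technical.

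RNA polymerase I transcribes the repeated rRNA genes in the nucleolus. SL1 and the architectural factor UBF mark the promoter, the factor encoded by Rrn3 brings the polymerase to it, and the product of Ttf1 ends transcription. The precursor is then modified at many sites by small nucleolar ribonucleoproteins, the box C/D particles that methylate it and the box H/ACA particles that convert uridines to pseudouridine, and it is cut and assembled into the small (40S) and large (60S) ribosomal subunits. In blood-forming cells, output of this pathway is tied to growth and division. Inherited changes in several of its genes, DKC1, NHP2 and NOP10 among them, cause marrow failure, and NPM1 is often mutated in acute myeloid leukaemia. PHF6 is itself a nuclear and nucleolar protein.

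Total counts were 17200917 to 18106065 in the floxed and 15406314 to 16896472 in the Vav1-Cre libraries. Phf6, the targeted gene, fell 3.51-fold, from 31.8, 29.6 and 33.5 CPM (counts scaled to the size of each library and corrected for composition) to 8.47, 10.3 and 8.29 CPM (adjusted p = 6.67e-06, edgeR's quasi-likelihood test with Benjamini-Hochberg adjustment over all genes, used for every adjusted p unless another tool is named). The markers of the LSK gate were present in all 6 libraries, with 1 of 7 (Ly6a, encoding Sca-1) higher and 6 lower in Vav1-Cre. Summed LSK markers ranged from 1560 to 1633 CPM in floxed and from 1169 to 1314 CPM in Vav1-Cre libraries. Markers of other cells moved with the genotype. B cell markers rose in 6 of 10 (324 to 768 CPM summed in floxed, 1427 to 2909 CPM in Vav1-Cre libraries), plasma cell markers in 5 of 7 (307 to 878 against 2049 to 4651 CPM), and macrophage and monocyte markers in 6 of 10 (281 to 574 against 1252 to 2632 CPM). Dendritic cell markers rose in 4 of 4 (195 to 229 against 309 to 373 CPM), erythroid markers in 2 of 6 (742 to 1095 against 1671 to 2827 CPM), and neutrophil markers in 0 of 7 (16790 to 28180 against 12680 to 33380 CPM). Of the 7 T and NK cell markers 6 rose and 1 fell, yet their sum was lower in Vav1-Cre (120 to 144 CPM) than in floxed libraries (163 to 184 CPM). No marker of these lists was at 0 in all libraries. Immunoglobulin genes took 0.706% ± 0.445 of counts in floxed and 6.42% ± 1.79 in Vav1-Cre libraries (SD, n = 3 each; exact two-sided permutation p = 0.1, the smallest that 3 against 3 libraries allow). The part of these other cells in the results below was not tested, and in such bulk samples a change in the mix of cells cannot be told apart from a change within a cell.

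Across the 36 genes the changes were small and went both ways. In the Vav1-Cre libraries 5 genes rose (Polr1d, Ncl, Fbl, Nhp2 and Gar1), 3 fell (Polr1a, Polr1b and Polr1e) and 28 did not pass the test. All 36 passed the filter on low counts. The share that passed, 22.2%, stands beside 17.9% of the 14608 genes tested (10.1% higher, 7.89% lower), so it is near the background. DESeq2 called 7 of the 36 and 19.2% of all genes, and limma-voom 6 and 15.8%. The 3 genes that fell all encode polymerase subunits, and 4 of the 5 that rose encode processing factors. The median log2 fold change (Vav1-Cre over floxed) was 0.05 over the 36 genes and -0.02 over all genes tested. No gene of the 36 changed by more than 1.33-fold, the estimate for Polr1b.

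The polymerase itself gave the largest falls. Polr1a encodes the largest subunit and Polr1b the second largest, which together form the catalytic centre, and Polr1e encodes a subunit that helps the enzyme bind its initiation factor and elongate. All of these belong to polymerase I alone. Polr1c and Polr1d encode an assembly dimer that is also built into RNA polymerase III.

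Polr1b (chr2:129100995-129126594, plus strand, GRCm38) measured 32.1, 31.8 and 28.3 CPM in the floxed and 22.4, 23.9 and 23.0 CPM in the Vav1-Cre libraries. Every Vav1-Cre library was below every floxed one, and the fold change was 1.33-fold lower (log2 -0.41, SE 0.10, adjusted p = 0.0139). Polr1e (chr4:45018583-45036565, plus strand) measured 33.0, 33.9 and 32.6 CPM against 26.0, 25.3 and 25.7 CPM. It had the tightest replicates of the 36 genes, with a within-group SD of 0.02 on the log2 scale, and its fall was 1.29-fold (log2 -0.37, SE 0.09, adjusted p = 0.0145). Polr1a (chr6:71909053-71984935, plus strand) measured 32.7, 36.4 and 37.2 CPM against 26.1, 24.9 and 32.3 CPM. The third Vav1-Cre library came close to the lowest floxed one, the groups did not overlap, and the fall of 1.28-fold was just past the threshold (log2 -0.35, SE 0.11, adjusted p = 0.0477). Of 13 alternative settings that kept all libraries, Polr1a passed in 4. It missed with DESeq2 (adjusted p = 0.0583), limma-voom (0.0635) and limma on FPKM values (0.134 to 0.262).

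Polr1d (chr5:147077050-147111597, plus strand) went the other way. It measured 137, 147 and 149 CPM in the floxed and 182, 176 and 172 CPM in the Vav1-Cre libraries, a rise of 1.23-fold (log2 0.29, SE 0.07, adjusted p = 0.0131) with no overlap. Its dimer partner Polr1c did not pass, at 77.0 ± 0.799 CPM against 75.9 ± 6.62 CPM (SD, n = 3 each; log2 -0.02, 95% interval -0.19 to 0.15, adjusted p = 0.876). Within each library, a measure that needs no scaling between libraries, the log2 ratio of Polr1d to Polr1b was 2.09, 2.21 and 2.40 in floxed and 3.02, 2.88 and 2.91 in Vav1-Cre libraries. This pair was chosen after its values were seen.

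These calls were made on 3 against 3 libraries and lie close to the threshold. On simulated counts whose spread differed from gene to gene, the share of false calls was above the nominal level, so an adjusted p just under 0.05 may be too small. Leaving out floxed library 1 gave adjusted p of 0.0558 for Polr1b and 0.0833 for Polr1d, leaving out floxed library 2 gave 0.0547, 0.0507 and 0.0514 for Polr1b, Polr1d and Polr1e, leaving out Vav1-Cre library 1 gave 0.0591 for Polr1b and 0.0529 for Polr1d, and leaving out Vav1-Cre library 2 gave 0.0556 for Polr1e. Polr1a passed in 1 of the 6 such fits, that without Vav1-Cre library 3 (0.00622), and missed the threshold in the other 5, between 0.0661 without floxed library 1 and 0.182 without Vav1-Cre library 2, with 0.138 without floxed library 2, 0.124 without floxed library 3 and 0.173 without Vav1-Cre library 1. The signs of the 4 genes were the same in all 19 alternative analyses. Exons of Polr1a overlap the antisense gene Gm26628 by 185 bases, where reads cannot be told apart because strand use is not known.

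The stretch just before the transcription start is shown for the 3 subunits called lower, a choice made after their values were seen. Each run is the 100 bases before the RefSeq start (GRCm38.p6, 5′ to 3′ in the direction of transcription), with any of 6 searched promoter motifs in capitals, a GC box (GGGCGG, either strand) for Polr1b and Polr1e and a CCAAT box for Polr1a. The last base of the Polr1b run and the last 26 bases of the Polr1e run lie inside the GENCODE gene, which starts earlier than the RefSeq one. The runs come from chr2:129100896-129100995, chr4:45018509-45018608 and chr6:71908953-71909052.
Polr1b: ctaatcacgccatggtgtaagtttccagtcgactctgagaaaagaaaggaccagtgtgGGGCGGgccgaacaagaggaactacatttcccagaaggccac
Polr1e: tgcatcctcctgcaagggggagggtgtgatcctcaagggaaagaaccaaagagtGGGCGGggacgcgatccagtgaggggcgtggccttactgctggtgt
Polr1a: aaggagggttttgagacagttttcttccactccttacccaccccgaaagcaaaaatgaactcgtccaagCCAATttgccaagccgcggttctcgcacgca
The 3 stretches share no single one of the 6 motifs.

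**Figure D1:**
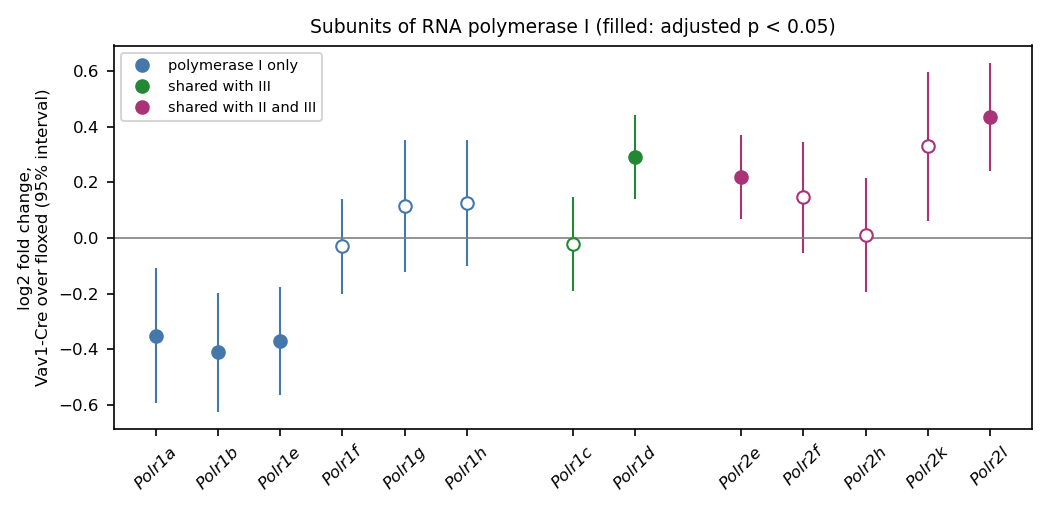
Log2 fold change (Vav1-Cre over floxed) with its 95% interval for the 13 subunits of RNA polymerase I, coloured by whether a subunit is used by polymerase I alone or shared with polymerase III or with II and III; filled points have an adjusted p under 0.05. The 3 subunits that fell belong to polymerase I alone, and the 3 that rose are shared ones, a grouping made after the values were seen. Of all genes tested 7.89% fell and 10.1% rose. DESeq2 gave 2 lower and 3 higher of the 13, and limma-voom 2 lower and 2 higher. With offsets for gene length Polr1a (adjusted p = 0.217) and Polr2e (0.0618) lost their calls.

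Mammalian polymerase I has 13 subunits, and the other 8 were read from the same fit. They were in the list of further pathway genes, but this grouping was made after their values were seen. Of the 6 subunits used by polymerase I alone, 3 fell and 0 rose, where 7.89% of all genes tested fell and 10.1% rose. DESeq2 and limma-voom each called 2 of the 6 lower, missing Polr1a (adjusted p = 0.0583 and 0.0635). At an unadjusted p under 0.05, 3 were lower, with 0 higher by each of these counts. The other 3, Polr1f, Polr1g and Polr1h, did not pass and had log2 fold changes of -0.03, 0.11 and 0.13, with 95% intervals of -0.20 to 0.14, -0.12 to 0.35 and -0.10 to 0.35. Of the 7 subunits shared with polymerase III, or with II and III, 3 rose and 0 fell. DESeq2 called 3 of the 7 higher, and limma-voom 2, missing Polr2e (adjusted p = 0.0526). At an unadjusted p under 0.05, 4 were higher, with 0 lower by each of these counts. Polr2l, a small subunit common to the 3 nuclear polymerases, measured 49.0, 47.8 and 45.7 CPM against 71.7, 58.4 and 62.8 CPM, which was 1.35-fold higher (log2 0.44, SE 0.09, adjusted p = 0.00617). Polr2e, another common subunit, rose 1.16-fold (log2 0.22, SE 0.07, adjusted p = 0.0479). It passed in 1 of the 6 fits that left out a library, with adjusted p up to 0.177, and in 4 of the 13 other settings. With per-library offsets for gene length the calls of Polr2e (adjusted p = 0.0618) and of Polr1a (0.217) were both lost. Polr2k, Polr2f and Polr2h had log2 fold changes of 0.33, 0.15 and 0.01 (adjusted p = 0.0843, 0.301 and 0.947). The estimate for Polr2e turned to -0.02 when the FPKM values were quantile-normalized. That setting lowered the median of all genes tested to -0.07, which bears on every sign change under it given below.

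Of the factors that bring the polymerase to its promoter or end transcription, 0 of 3 passed the test (0 by DESeq2, by limma-voom and at an unadjusted p under 0.05). Ubtf, which encodes UBF, measured 184, 199 and 184 CPM in the floxed and 191, 211 and 196 CPM in the Vav1-Cre libraries. The groups overlapped, and the 95% interval of the log2 fold change was -0.08 to 0.24. The estimate, 0.08, turned to -0.09 with quantile normalization (main adjusted p = 0.511). Rrn3, whose product makes the polymerase competent to initiate, measured 36.2, 34.0 and 38.5 CPM against 32.0, 33.1 and 34.2 CPM (log2 -0.13, interval -0.33 to 0.06, adjusted p = 0.347). Its highest Vav1-Cre library lay just above its lowest floxed one. Ttf1, the termination factor, stood at a log2 fold change of -0.15 (adjusted p = 0.458).

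The 4 TAF proteins of SL1, which bind the promoter with TBP, gave no call either (0 of 4 by edgeR, DESeq2 and limma-voom, and 0 at an unadjusted p under 0.05). Their log2 fold changes ran from -0.16 for Taf1c to 0.11 for Taf1b, with Taf1a at 0.05 and Taf1d at -0.02. Taf1a was the least precise of the 36 genes, with 10.6 to 14.9 CPM in floxed and 10.8 to 14.3 CPM in Vav1-Cre libraries and an interval of -0.32 to 0.41. Exons of Taf1c overlap those of Dnaaf1 on the other strand by 584 bases, and since strand use in the counting is not known, reads there cannot be told apart. Taf1d holds 8 small nucleolar RNA (snoRNA) genes, the most among the 36 genes.

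**Figure D2:**
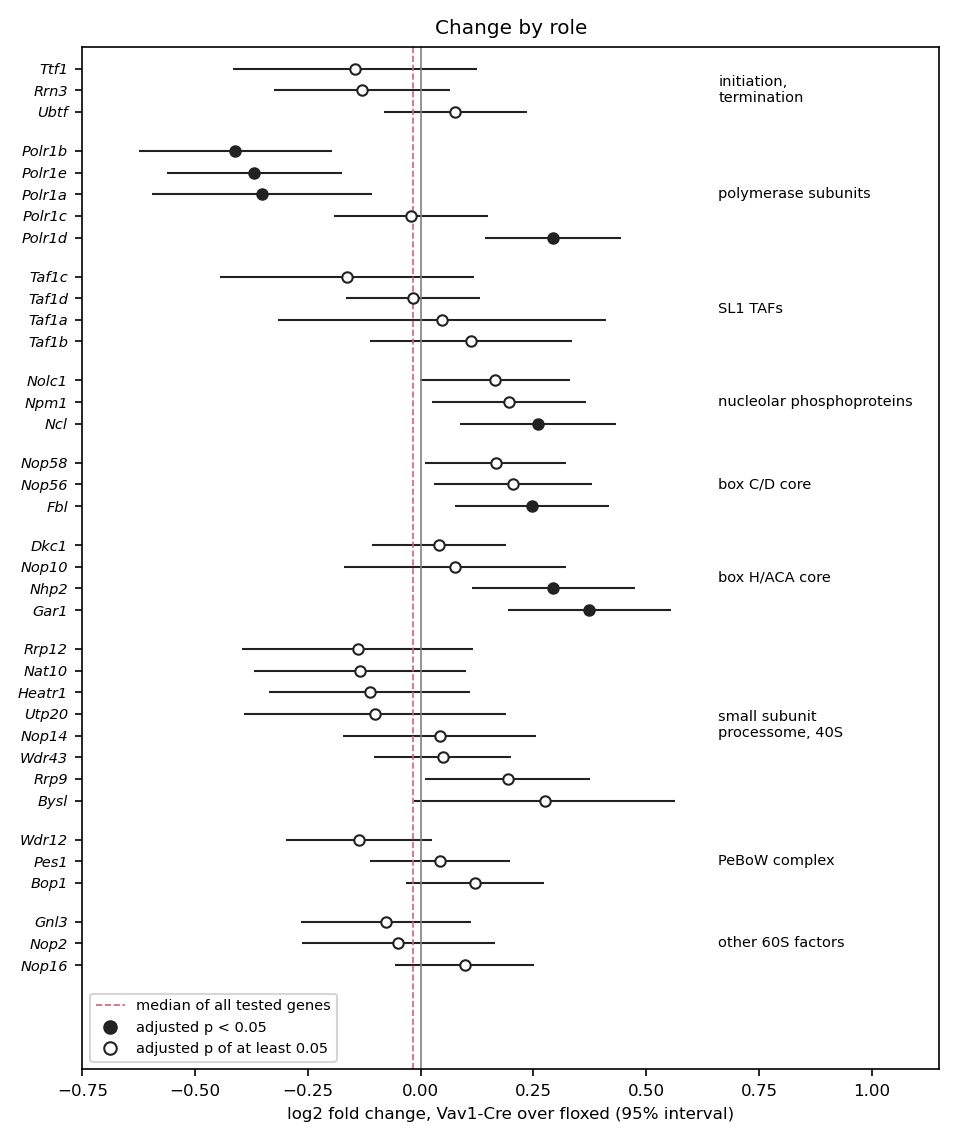
Log2 fold change with 95% interval for the 36 genes, grouped by role and sorted within each; filled points have an adjusted p under 0.05 and the dashed line is the median of all genes tested. Calls lie among the polymerase subunits, the nucleolar phosphoproteins and the box C/D and box H/ACA proteins, with 0 among the other roles.

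Among the 24 processing factors 4 rose, 0 fell and 20 did not pass (16.7% called; 0 lower also by DESeq2, by limma-voom and at an unadjusted p under 0.05). The median log2 fold change was 0.09, against -0.02 for all genes, and 17 of the 24 estimates were positive. With quantile-normalized FPKM values 0 genes of the 24 passed and the median was -0.08. In that setting the median of all genes tested was itself lower, at -0.07, so the 2 medians lay close together. Levels of all 6 libraries separated the groups for 10 factors (9 higher, 1 lower), or 41.7%, beside 37.2% of all genes tested (18.9% higher, 18.3% lower). The 4 that rose are Ncl, Fbl, Nhp2 and Gar1.

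The abundant nucleolar phosphoproteins all had higher estimates, and 1 of 3 passed (1 also by DESeq2 and by limma-voom). Of all genes tested 10.1% were called higher. Ncl (chr1:86344719-86359400, minus strand) encodes nucleolin, an RNA-binding protein of the early precursor. It measured 781, 788 and 872 CPM in floxed and 1007, 1004 and 911 CPM in Vav1-Cre libraries, a rise of 1.20-fold (log2 0.26, SE 0.08, adjusted p = 0.0409). Npm1, encoding the nucleolar chaperone nucleophosmin, measured 1187, 1091 and 1259 CPM against 1386, 1366 and 1299 CPM. Its groups did not overlap, but the difference did not pass (log2 0.20, SE 0.08, adjusted p = 0.105). Nolc1, a chaperone of snoRNA particles, stood at a log2 fold change of 0.16 (adjusted p = 0.159). The estimates of Ncl and Npm1 turned to -0.04 and -0.15 with quantile normalization.

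The box C/D particle places methyl groups on rRNA. Each of its 3 listed core proteins had every Vav1-Cre library above every floxed one, and 1 of 3 passed. Of all genes tested 18.9% separated in this direction and 10.1% were called higher. DESeq2 called 1 of the 3 and limma-voom 0, missing Fbl (adjusted p = 0.0531). Fbl (chr7:28169710-28179269, plus strand), the methyltransferase fibrillarin, measured 276, 292 and 313 CPM in the floxed and 369, 348 and 329 CPM in the Vav1-Cre libraries. The rise was 1.19-fold (log2 0.25, SE 0.08, adjusted p = 0.0468). Nop56 and Nop58, the scaffold pair of the particle, had log2 fold changes of 0.20 and 0.17 (adjusted p = 0.0979 and 0.13). Nop58 passed with offsets for gene length (adjusted p = 0.0146), and Fbl and Nop56 turned to -0.04 and -0.07 with quantile normalization.

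Of the 4 core proteins of the box H/ACA particle, which makes pseudouridine, 2 rose and 2 did not pass. DESeq2 and limma-voom each called 2 higher as well. Of all genes tested 10.1% were called higher. Gar1 (chr3:129824912-129831396, minus strand), encoding the protein that joins the particle last, had the highest log2 fold change of the 36 genes. It measured 74.7, 77.3 and 89.5 CPM against 109, 105 and 98.2 CPM, 1.29-fold higher with no overlap (log2 0.37, SE 0.08, adjusted p = 0.00959). Nhp2 (chr11:51619735-51623714, plus strand), an RNA-binding core protein, measured 153, 152 and 157 CPM against 213, 179 and 175 CPM. It rose 1.23-fold (log2 0.29, SE 0.08, adjusted p = 0.0291), with the first Vav1-Cre library well above the other two. Dkc1, the pseudouridine synthase itself, was at 98.1 ± 2.45 CPM against 101 ± 3.51 CPM (SD, n = 3 each; log2 0.04, interval -0.11 to 0.19, adjusted p = 0.726), and Nop10 stood at a log2 fold change of 0.08 (adjusted p = 0.682). With upper-quartile scaling Dkc1 turned to -0.0039, and with quantile normalization Nhp2, Dkc1 and Nop10 turned to -0.09, -0.08 and -0.26. The log2 ratio of Gar1 to Dkc1 within a library was -0.36, -0.38 and -0.13 in floxed and 0.10, 0.12 and -0.08 in Vav1-Cre libraries, a pair chosen after its values were seen.

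Among the 13 alternative settings that kept all libraries, Gar1 passed in 11, Ncl in 7, and Fbl and Nhp2 in 6 each. Nhp2 missed with upper-quartile scaling (adjusted p = 0.052) and with the robust option off (0.0505), among others. Of these processing calls, that of Gar1 was lost without floxed library 1 (adjusted p = 0.0633) or 2 (0.062). Ncl and Fbl passed without floxed library 3 or Vav1-Cre library 3 and were lost without floxed library 1 (0.179 and 0.21), floxed library 2 (0.142 and 0.143), Vav1-Cre library 1 (0.128 and 0.169) and Vav1-Cre library 2 (0.141 and 0.118). Nhp2 passed without Vav1-Cre library 3 (0.00908), and was lost without floxed library 1 (0.106), 2 (0.112) or 3 (0.0631) and without Vav1-Cre library 1 (0.125) or 2 (0.052).

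The starts of Gar1 and Ncl are shown as the processing factors with the highest call and with the most abundant called RNA. The 100 bases before the RefSeq start hold an ETS-type motif in Gar1 (CCGGAAG, here on the other strand) and a pair of GC boxes in Ncl, in capitals. They are read 5′ to 3′ from chr3:129831397-129831496 and chr1:86359456-86359555, minus strand.
Gar1: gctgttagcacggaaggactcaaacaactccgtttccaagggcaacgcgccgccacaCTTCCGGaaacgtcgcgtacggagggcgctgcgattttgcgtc
Ncl: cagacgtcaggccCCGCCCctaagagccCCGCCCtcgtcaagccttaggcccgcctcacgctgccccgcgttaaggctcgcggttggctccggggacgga

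The factors of the small subunit processome and of 40S maturation gave 0 calls of 8 (0 by DESeq2 and limma-voom, 1 at an unadjusted p under 0.05), with a median log2 fold change of -0.03. Rrp12, which takes part in export of the 40S precursor, was the lowest of all processing factors. It measured 25.6, 27.7 and 24.8 CPM in floxed and 20.0, 26.2 and 24.7 CPM in Vav1-Cre libraries (log2 -0.14, adjusted p = 0.45), so that 1 Vav1-Cre library was low and the other 2 lay among or beside the floxed ones. The early processome proteins Heatr1 and Utp20 and the 18S rRNA acetyltransferase Nat10 had log2 fold changes of -0.11, -0.10 and -0.13, and Wdr43 and Nop14 of 0.05 and 0.04. The highest were Rrp9, a protein of the U3 snoRNA particle, at 0.19 (adjusted p = 0.137), and Bysl, a 40S assembly factor, at 0.27 (interval -0.02 to 0.56, adjusted p = 0.179). Bysl shares 361 exon bases with Ccnd3 on the other strand, whose reads cannot be told apart from its own.

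Large subunit factors also gave 0 calls, of 3 in the PeBoW complex and of 3 others (0 by DESeq2, by limma-voom and at an unadjusted p under 0.05). The PeBoW proteins, which act together on the 60S precursor, had main estimates of both signs, and this depended on the setting. With offsets for gene length Bop1, Pes1 and Wdr12 were at 0.10, 0.03 and 0.0075. With quantile normalization they were at -0.04, -0.15 and -0.14. In the main analysis Bop1 and Pes1 had log2 fold changes of 0.12 and 0.04, and Wdr12 had -0.14 (adjusted p = 0.23). For Wdr12 every Vav1-Cre library was below every floxed one (78.3, 78.1 and 79.1 CPM against 72.4, 66.3 and 75.5 CPM). The rRNA methyltransferase Nop2, the assembly factor Nop16 and the nucleolar GTPase Gnl3, known as nucleostemin, had log2 fold changes of -0.05, 0.10 and -0.08.

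**Figure D3:**
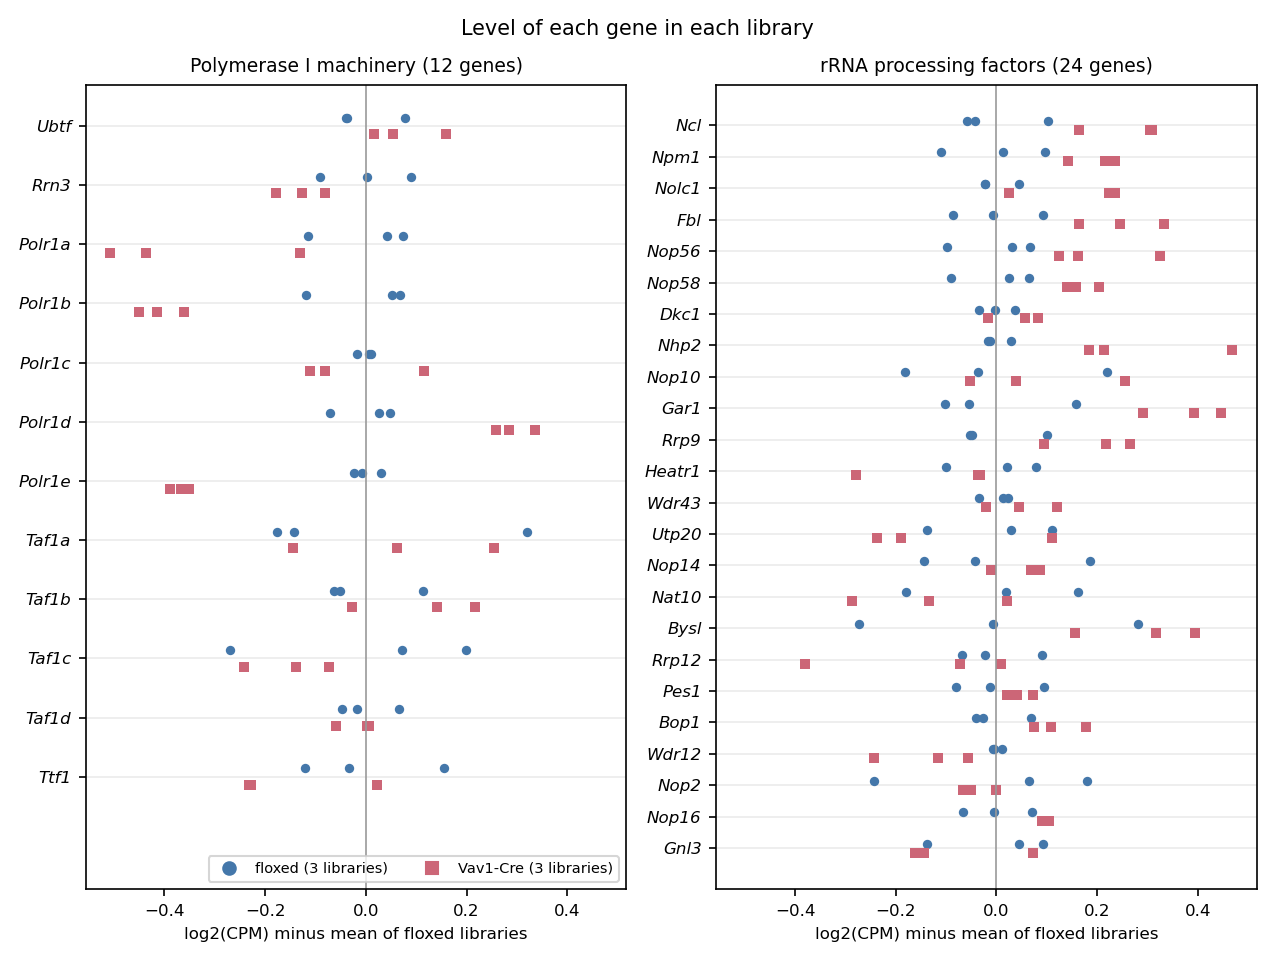
Log2 CPM of each of the 36 genes in each library, minus the mean of the 3 floxed libraries (circles floxed, squares Vav1-Cre). The squares of Polr1a, Polr1b and Polr1e lie left of all their circles and those of Polr1d, Ncl, Fbl, Nhp2 and Gar1 right of all of theirs, while most other genes overlap. Npm1, Nop56, Nop58, Bop1, Nop16 and Wdr12 separate as well, without a call. In all, 14 of the 36 genes separate (38.9%), near the 37.2% of all genes tested.

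Set against each other, the mean levels of the machinery and of the processing factors moved apart slightly. The machinery gave 1 higher and 3 lower of 12 (33.3% called), with a median log2 fold change of -0.08. Its lowest estimates were those of Polr1a, Polr1b and Polr1e (-0.35, -0.41 and -0.37). The initiation and termination factors had a median of -0.13 and the SL1 TAFs of 0.02, with 0 calls. The processing factors gave 4 higher and 0 lower of 24 (16.7% called), with a median of 0.09. Of all genes tested 17.9% were called (10.1% higher, 7.89% lower), so the share of the processing factors was near the background. Within each library, the mean log2 CPM of the processing factors minus that of the machinery was 1.12, 1.11 and 1.13 in the floxed and 1.25, 1.29 and 1.35 in the Vav1-Cre libraries. The groups did not overlap, and the difference of the means was 0.18 on the log2 scale, or 0.07 with quantile normalization. Summed levels gave another view, since abundant genes weigh more there. The processing factors together took 4120, 4155 and 4345 CPM in floxed and 4846, 4751 and 4646 CPM in Vav1-Cre libraries, and the machinery 750, 788 and 769 CPM against 790, 784 and 770 CPM. The summed machinery thus overlapped between the groups, its lower subunits being scarce and Polr1d being abundant.

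Per length, the processing factors spanned a wide range of levels. In floxed libraries Npm1 stood at 439 ± 33.9 FPKM (a level divided by gene length, SD, n = 3), followed by Nhp2 at 133 ± 3.05, Nop10 at 116 ± 16.4, Ncl at 79.2 ± 5.29 and Fbl at 69.2 ± 4.57 FPKM. The lowest was Utp20 at 1.59 ± 0.128 FPKM. Of the polymerase subunits, Polr1d stood at 47.0 ± 2.09 and Polr1c at 33.5 ± 0.358 FPKM, Polr1e at 8.44 ± 0.115 and Polr1b at 5.25 ± 0.345 FPKM, and Polr1a, the largest subunit, at 2.96 ± 0.204 FPKM. The length used is that of all annotated exons merged (11871 bases for Polr1a, 10188 for Ncl), which is longer than any one transcript and lowers the FPKM of genes with many annotated transcripts.

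Gene length moved with the fold changes. Over all genes, the median log2 fold change ran from 0.20 in the shortest of 10 length classes to -0.13 in the longest. Among the 36 genes the same relation had a Pearson r of -0.43 and a Spearman rho of -0.42 (across genes of the same libraries, which are not independent replicates), and -0.08 and -0.12 after per-library offsets for length. The 12 genes of up to 3000 bases had a median log2 fold change of 0.10, the 13 between 3000 and 6000 bases 0.04, and the 11 longer ones -0.10; with the offsets these were 0.06, 0.06 and 0.01. With the offsets Polr1a (11871 bases) was at -0.21 (adjusted p = 0.217) and Nhp2 (1146 bases) at 0.18 (adjusted p = 0.102), so both calls were lost. Polr1b, Polr1e, Polr1d, Ncl, Fbl and Gar1 kept theirs, and Ncl, one of the longest, was higher still (0.39, adjusted p = 0.00682). The length in these offsets is that of merged exons (10188 bases for Ncl), longer than any one transcript. What that does to the offsets was not tested.

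**Figure D4:**
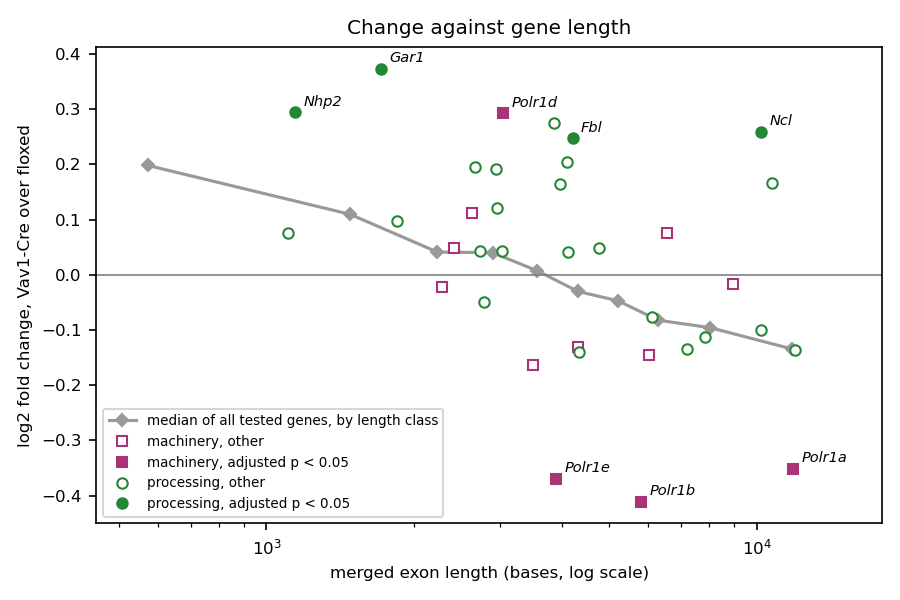
Log2 fold change against merged exon length (log axis) for the 12 machinery and 24 processing genes, with the median of all tested genes in each of 10 length classes as the grey line. Polr1a, Polr1b and Polr1e lie below the line and Ncl, Fbl, Polr1d, Nhp2 and Gar1 above it.

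In the rest of the pathway few genes passed. Of 118 other ribosome biogenesis genes, 117 were tested, 9 rose, 1 fell and 107 did not pass (8.55% called, under the 17.9% of all genes), with a median log2 fold change of 0.02. Polr2l is described above. Exosc8, a subunit of the RNA exosome that trims rRNA precursors, measured 72.4, 72.0 and 69.5 CPM against 87.3, 89.2 and 94.99 CPM (log2 0.34, adjusted p = 0.00612). The processome proteins Utp18 and Rrp36 had log2 fold changes of 0.33 and 0.34 (adjusted p = 0.0137 and 0.0176), Snu13, the protein that nucleates the box C/D particle, of 0.34 (0.0168), and Emg1, an rRNA methyltransferase, of 0.30 (0.0281). Exosc8 and Polr2l passed in all 6 fits that left out a library. Utp18 passed in 4, and was lost without floxed library 1 (0.0777) or Vav1-Cre library 2 (0.0509), and Rrp36 in 3, lost without floxed library 1 (0.0717) or 3 (0.0673) or Vav1-Cre library 1 (0.0592). Snu13 and Emg1 passed without floxed library 3 or Vav1-Cre library 3 and were lost without floxed library 1 (0.0715 and 0.136), floxed library 2 (0.0918 and 0.118), Vav1-Cre library 1 (0.0822 and 0.123) and Vav1-Cre library 2 (0.0577 and 0.078). The one that fell was Mdn1, a very large ATPase that remodels the 60S precursor, at 28.8, 25.4 and 28.4 CPM against 15.3, 18.9 and 23.6 CPM (log2 -0.52, SE 0.14, adjusted p = 0.0276). Its call was kept without Vav1-Cre library 3, lost in the other 5 such fits (adjusted p up to 0.106) and with offsets for length (0.11). Tcof1, encoding treacle, a partner of UBF and polymerase I, was at 95.4 ± 3.49 CPM against 93.3 ± 4.07 CPM (SD, n = 3 each; log2 -0.03, adjusted p = 0.796; 0.03 with the length offsets). Wdr74 had too few counts to be tested.

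Of 15 known regulators of the pathway, 5 fell and 0 rose (0 higher by edgeR, 2 by DESeq2, 1 by limma-voom and 2 at an unadjusted p under 0.05), or 33.3% called, beside 17.9% of all genes (7.89% lower). One of the 5 is Phf6, the gene targeted in the mice. Myc, a general activator of rRNA synthesis and of ribosome biogenesis genes, measured 157, 157 and 144 CPM in the floxed and 82.7, 83.3 and 108 CPM in the Vav1-Cre libraries, 1.67-fold lower with no overlap (log2 -0.74, SE 0.10, adjusted p = 0.000855). Its relative Mycn stood at a log2 fold change of -0.73 (adjusted p = 0.00293), and Mga, a repressor that shares the partner MAX, of -0.59 (0.00371). Baz2a, which encodes the silencing subunit of a complex that closes rRNA gene repeats, was at -0.35 (0.0128). Mxd3, a MYC antagonist that pairs with MAX, had the highest estimate of the list and just missed the threshold (named after its values were seen). It measured 26.1, 16.3 and 28.7 CPM against 48.6, 48.3 and 36.7 CPM, with no overlap (log2 0.91, SE 0.24, adjusted p = 0.0514). It passed in 6 of the 13 other settings, DESeq2 (1.57e-05) and limma-voom (0.0179) among them, and in 3 of the 6 fits that left out a library, with adjusted p between 0.0145 and 0.161. Calls of Phf6, Myc, Mycn and Mga were kept in all 6 fits that left out a library, and that of Baz2a in 3, being lost without floxed library 1 (0.0579) or 2 (0.0501) or Vav1-Cre library 2 (0.0607).

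Because MYC with MAX binds the E-box CACGTG, that motif was counted in the promoters together with 5 others. RefSeq windows (250 bases before to 50 after the start) were found for 32 of the 36 genes, with none for Npm1, Fbl, Bop1 and Rrp12. The E-box was present on either strand in 5 of 32 (15.6%) and in 7.24% of 27025 promoters of all genes. Upstream of the start alone the shares were 6.25% and 6.04%. Its 2 upstream matches are shown in capitals with the bases around them, from chr16:13780467-13780506 for Rrn3 and chr6:125131806-125131845 for Nop2, both on the plus strand.
Rrn3: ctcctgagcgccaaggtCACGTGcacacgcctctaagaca
Nop2: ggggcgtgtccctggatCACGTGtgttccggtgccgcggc
The ETS-type motif CCGGAAG was in 12 of 32 (37.5%; 7 of 12 machinery and 5 of 20 processing genes), against 9.14% of all promoters and 11.9% of those of protein-coding genes. Upstream of the start alone it was in 9 of 32 (28.1%; 4 of 12 machinery and 5 of 20 processing genes), against 7.07% and 9.15%. In the whole window the GC box was in 19 of 32 (59.4%, against 35.9% and 46.3%) and CCAAT in 11 (34.4%, against 38.0% of all). There the TATA box TATAAA was in 2 (6.25%, against 14.2%) and the NRF1 palindrome in 0 (against 0.981%). No motif of the list contains another, though matches can share bases. The median GC content of the bases before the start was 54.8% for the 32 genes and 55.2% for protein-coding genes. A match describes letters only, and binding was not measured.

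**Figure D5:**
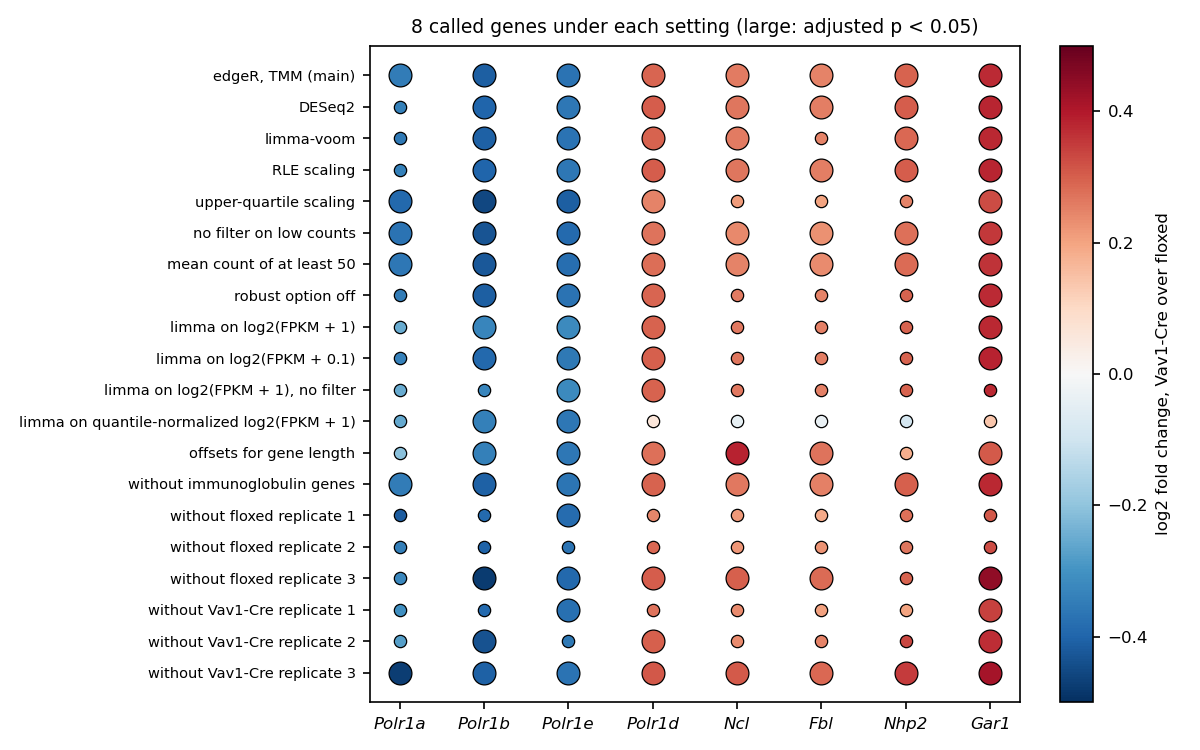
The 8 genes past the threshold (columns) under the main analysis and 19 alternatives (rows), coloured by log2 fold change, with large points for an adjusted p under 0.05. Polr1b, Polr1e, Polr1d and Gar1 keep large points in most rows, and Ncl, Fbl and Nhp2 change sign in the row with quantile normalization.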

How the data were processed

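The authors deposited whole-number read counts and FPKM values for each library, per the file headers. The submitters' processing notes name Bowtie and the build mm8; for the counter, its strand setting and the annotation, nothing is given in the sources used here. Per the labels' protocols, RNA came from TRIzol extraction and an Illumina TruSeq kit. Gene lengths implied by counts and FPKM equalled merged exons of GENCODE M21 (GRCm38) within 0.01% for 94.4% of genes with over 200 counts, so coordinates are of GRCm38. The deposited FPKM values are already scaled between libraries by median-ratio size factors.

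Counts were tested with edgeR 4.0.16 in R 4.3.3 (TMM scaling, minimum count 10, robust quasi-likelihood, Benjamini-Hochberg, threshold 0.05), checked first on simulated counts, where the share of false calls was near nominal with a common trend of the spread and above it with a spread of its own for each gene. CPM uses the TMM factors, SE is the log2 fold change over the square root of F, and intervals are 95%. The alternatives were DESeq2 1.42.0, limma 3.58.1 (voom, and log2 of FPKM plus 1 or 0.1, mean of at least 0.5 or no filter, quantile-normalized), other scalings, filters, options, length offsets, removal of immunoglobulin genes and leaving out each library. Identifiers without a symbol (123) held 0.031% to 0.048% of counts. The genes and lists were chosen with earlier results of these data known. All 36 genes are named. Per-library values are given for those past the threshold, for Ubtf, Rrn3, Npm1 and the extremes, and for Wdr12, which was added after its values were seen. Of the other lists, up to 6 biogenesis genes per direction with the smallest p, Tcof1 and the regulators past the threshold are named. Promoters are RefSeq windows (GRCm38.p6). The stretches before Polr1d and Nhp2 are not shown, because 100 and 38 of their 100 bases lie inside the GENCODE gene.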

Additional observations from a re-analysis of the deposited data

How the results depend on the processing

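No paired analysis was possible because the labels give no replicate number that the groups share. Of 1045 comparisons of a gene under an alternative with its main result (55 genes), 880 kept direction and side of the threshold, 116 lost their call, 2 gained one and 47 changed sign; the cause was not tested. All genes gave 1469 higher and 1152 lower calls in the main analysis. The split was 1215 higher and 1430 lower with upper-quartile scaling and 683 higher and 1135 lower with quantile-normalized FPKM values. With limma on log2(FPKM + 1) 584 were lower, with a pseudocount of 0.1 978 were higher and 570 lower, and without a filter 409 were higher and 202 lower.

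Of the 36 genes, 5 were higher in the main analysis. That count was 2 with upper-quartile scaling, with the robust option off and with limma on FPKM at either pseudocount, 1 without a filter on FPKM and 0 with quantile normalization. For the processing factors alone (4 in the main analysis) these counts were 1 with upper-quartile scaling, with the robust option off and at either pseudocount, and 0 without a filter on FPKM or with quantile normalization. The machinery had 0 higher genes with quantile normalization, and the lower genes numbered 1 without a filter on FPKM. The median of the processing factors was 0.042 with upper-quartile scaling and -0.084 with quantile normalization, and the gap between the sets 0.07 with the latter. The medians of all genes tested in these settings were -0.0615 and -0.0739.

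Other biogenesis genes had 5 higher with upper-quartile scaling, 4 with limma on FPKM at either pseudocount, 3 without a filter and 0 with quantile normalization. Lower ones numbered 2 with upper-quartile scaling or no filter on counts, 4 with quantile normalization, and 0 with the robust option off, with limma on FPKM at either pseudocount or without a filter, and with length offsets. Cell cycle genes had 9 higher with limma on FPKM at either pseudocount, 2 without a filter and 4 with quantile normalization. Regulators had 2 higher with DESeq2 or no filter on counts, and 1 with limma-voom, the filter at a mean count of 50, length offsets, the robust option off or no immunoglobulin genes; 2 were lower with unfiltered FPKM.

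Leaving out each library in turn gave 682 to 1882 higher and 507 to 1413 lower calls over all genes, and 0 to 5 higher and 0 to 3 lower among the 36. The machinery had 0 to 1 higher and 0 to 3 lower, the processing factors 0 to 4 higher, other biogenesis genes 2 to 13 higher and 0 to 3 lower, cell cycle genes 9 to 17 higher and regulators 0 to 2 higher. None of the 36 genes passed without floxed library 2, and Polr1e alone did without floxed library 1.

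Signs changed with quantile normalization for Ubtf (-0.089), Ncl (-0.040), Npm1 (-0.15), Fbl (-0.037), Nop56 (-0.066), Dkc1 (-0.082), Nhp2 (-0.086), Nop10 (-0.26), Wdr43 (-0.096), Nop14 (-0.039), Pes1 (-0.15), Bop1 (-0.042), Nop16 (-0.12), Polr1h (-0.17), Polr2e (-0.017), Polr2f (-0.041) and Polr2h (-0.14). They changed with length offsets for Taf1d (0.094), Nop10 (-0.037), Utp20 (0.026), Wdr12 (0.0075), Tcof1 (0.026), Polr1f (0.025), Polr1h (-0.019) and Polr2h (-0.068), with upper-quartile scaling for Dkc1 (-0.0039), Nop14 (-0.0019), Pes1 (-0.0017) and Polr2h (-0.032), and without a count filter for Polr2h (-0.0073). Leaving out a library changed the sign of Polr1c (-0.094 to 0.022), Taf1a (-0.055 to 0.21), Taf1d (-0.053 to 0.0043), Nop10 (-0.023 to 0.18), Nop14 (-0.039 to 0.12), Pes1 (-0.0079 to 0.074), Nop2 (-0.17 to 0.026), Tcof1 (-0.078 to 0.0062), Polr1f (-0.077 to 0.0024), Polr1h (-0.005 to 0.20) and Polr2h (-0.058 to 0.079), given as ranges over the 6 fits.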

Other observations

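Many cell cycle genes rose in the same libraries. Of 24 listed, 14 rose, 0 fell and 10 did not pass (58.3% called, beside 17.9% of all genes tested with 10.1% higher; 0 lower also by DESeq2, by limma-voom and at an unadjusted p under 0.05), with a median log2 fold change of 0.30 and positive estimates for all 24. Ccne1, a cyclin of entry into S phase, changed by 0.99 on the log2 scale (adjusted p = 0.00149). Rrm2, a subunit of ribonucleotide reductase, changed by 0.78 (0.000625), and both were chosen after their values were seen.

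The annotation holds 1 feature of rRNA type with many reads, CT010467.1 (chr17:39846353-39848827). It measured 210, 223 and 176 CPM in floxed and 240, 213 and 160 CPM in Vav1-Cre libraries (log2 0.01, SE 0.16, adjusted p = 0.972), and was chosen after its values were seen. How rRNA was removed during library preparation is not stated in the labels, so this value is no measure of rRNA synthesis.

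Of the 36 genes, 7 hold annotated snoRNA genes within their bounds (Taf1d, Nop56, Nop58, Ncl, Wdr43, Gnl3 and Dkc1). Of these 1 rose and 0 fell (14.3% called), with a median log2 fold change of 0.05. Of the other 29, 4 rose and 3 fell (24.1% called), with a median of 0.04. Both shares lie around the 17.9% of all genes tested.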
